A study of Mus musculus with 5 samples.

Results

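The genes described here are those of the lysosome and of the proton pump that acidifies it, in bone marrow-derived macrophages (BMMs) given Sema3G, a secreted class 3 semaphorin. They are 40 symbols of 24419 rows in the gene table, taken by symbol. The list held 11 lysosomal enzymes, 3 soluble proteins of the lumen without enzyme activity of their own, 9 membrane proteins, 5 subunits of the membrane part (V0) of the vacuolar ATPase, 9 genes of its cytosolic part (V1) or accessory proteins, and 3 transcription factors. BMMs were grown from bone marrow of C57BL/6 mice for 5 days with M-CSF at 50 ng/ml, and all 5 samples were activated with LPS at 100 ng/ml. For the next 18 h, 2 samples received PBS and 3 samples received recombinant Sema3G at 100 ng/ml. RNA 3′ ends were counted by unique molecular identifier (UMI), which counts each captured molecule once. The comparison asks how the transcriptome of LPS-stimulated BMMs differs when Sema3G is added.

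Lysosomes are the acidic compartment in which a macrophage degrades what it has engulfed and what autophagy delivers. The vacuolar ATPase (V-ATPase) pumps protons into them: its V1 part hydrolyses ATP in the cytosol, and its V0 part carries the protons across the membrane. Many of these genes share a short promoter element, known as CLEAR, whose core is the E-box CACGTG, and the related factors TFEB, TFE3 and MITF bind it. mTORC1 on the lysosome surface keeps these factors in the cytosol when nutrients are plentiful.

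The promoter sequences below are shown because the 3 factors that read this E-box are on the list with their known kinds of target. Promoter windows from 250 bases before to 50 after the start of the gene (RefSeq, GRCm38.p6) were found for 33 of the 40 genes. None was found for Asah1, Atp6v0d2, Atp6v1b2, Atp6v1c1, Atp6v1g1, Atp6v1h and Npc1. The E-box CACGTG, a palindrome and therefore the same on both strands, was present in 9 of the 33 (27.3%), against 12.3% of 7814 other tested genes with a window and 8.09% of all 27025 genes with one. The longer palindrome TCACGTGA, which contains the shorter one, was present in 4 of the 33 (12.1%), against 2.33% and 1.12%. These shares are a description of the letters in the windows and not of binding. The 9 genes were Gaa, Gla, Glb1, Lgmn, Lamp1, Mcoln1, Atp6v0b, Atp6v0d1 and Atp6v1a. Below are stretches of 60 bases upstream of the first annotated exon, 5′ to 3′ on the strand of the gene, for the 6 of these 9 genes in which such a stretch held an E-box, with the E-boxes (for Gla the longer form) in capitals. They show the motif and were not chosen by the differences between the groups. Genes with the E-box stand at both ends of the list. Gaa, Lgmn and Lamp1, which are among the lowest log2 fold changes, have it, and so do Gla and Mcoln1, the only 2 above 0. Tfe3, Atp6v0a1 and Atp6v1f, also among the lowest, have a window without it. A relation between the motif and the differences was not tested. The stretches are:
Lamp1 (chr8:13159096-13159155, plus strand): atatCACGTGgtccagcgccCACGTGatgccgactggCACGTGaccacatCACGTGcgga
Atp6v0b (chr4:117887334-117887393, minus strand): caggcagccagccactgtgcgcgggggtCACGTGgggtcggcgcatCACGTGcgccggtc
Gaa (chr11:119267796-119267855, plus strand): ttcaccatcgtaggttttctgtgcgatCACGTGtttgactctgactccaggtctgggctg
Gla (chrX:134601184-134601243, minus strand): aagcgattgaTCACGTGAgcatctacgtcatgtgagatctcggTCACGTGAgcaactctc
Glb1 (chr9:114401003-114401062, plus strand): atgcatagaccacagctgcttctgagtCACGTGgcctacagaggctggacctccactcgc
Mcoln1 (chr8:3500397-3500456, plus strand): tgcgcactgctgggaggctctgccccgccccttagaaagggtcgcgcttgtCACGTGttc
Lamp1 held 4 E-boxes within this stretch. Atp6v0b, Gla and Mcoln1 held 2 each in the whole window, and the second one of Mcoln1 lies beyond the stretch shown. Gaa and Glb1 held 1 each.

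**Figure D1:**
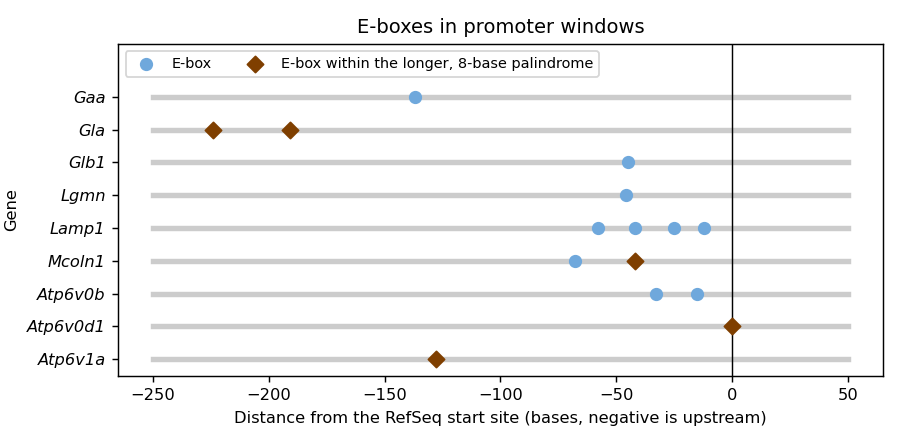
Distance in bases of each E-box from the RefSeq start site (0, negative is upstream) for the 9 genes with one, over the window of 250 bases before to 50 after it (grey line). Circles are the 6-base E-box and diamonds the E-box within the longer palindrome of 8 bases. Of the 15 E-boxes, the 4 of Lamp1 sit between -58 and -12, and the 2 of Gla are the farthest upstream, at -224 and -191.

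The libraries held between 1798469 and 2215855 UMIs, of which 77.6% and 75.6% fell on listed genes with PBS and 71.3%, 67.1% and 65.9% with Sema3G. Rn45s, the precursor of ribosomal RNA, made up 1.01% and 3.19% of all UMIs with PBS and 6.31%, 7.40% and 7.88% with Sema3G. CPM puts the UMIs of each gene on a common library total, in which these UMIs are included, and the median log2 fold change (log2FC) of all 10088 tested genes was -0.22. With scaling by TMM factors from edgeR it was -0.034, so the class medians and the values of many of the named genes are also given below with the median of -0.22 subtracted. Macrophage markers had more than 3 UMIs over the 5 libraries for 7 of 7 genes, with a summed level of 9425 to 11915 CPM with PBS and 8435 to 9218 CPM with Sema3G. This sum came mostly from Csf1r and Lyz2. Adgre1 and Csf1r were lower in every Sema3G library than in both PBS libraries, Itgam and Mertk (16 UMIs in all) were higher, and the others overlapped. Markers of lymphoid cells were at 0 for 5 of 5 genes. Of 7 neutrophil markers 3 passed this limit, with a sum of 116 to 169 CPM with PBS and 103 to 133 CPM with Sema3G that came almost wholly from S100a8, while Ngp, Elane and Retnlg were at 0. Of 8 osteoclast markers, 5 passed it, with a sum of 137 to 174 CPM with PBS and 83.9 to 104 CPM with Sema3G that came mostly from Mmp9 and Acp5, while Calcr and Ocstamp were at 0. Atp6v0d2, a gene of the proton pump list, is among these markers. All 4 stromal markers passed it, with a sum of 7.49 to 17.03 CPM with PBS and 8.34 to 12.9 CPM with Sema3G. Their part in the results below was not tested.

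With Sema3G, no lysosome or proton pump gene passed the test in either direction, although most had lower CPM than with PBS. limma on log2(CPM + 1) with Benjamini-Hochberg adjustment over all tested genes called 0 of 39 at an adjusted p below 0.05, against 1.8% of all genes in either direction and 0.218% lower. The 40th gene, Atp6v0c, was listed at 0 in all 5 libraries and was not tested. DESeq2 and edgeR's quasi-likelihood test with TMM factors also called 0, against 0.00782% and 0.0491% of all genes called lower, and edgeR by library size only called 1, Gaa, against 0.282% of all genes called lower. At an unadjusted p below 0.05, 12 of the 39 were lower and 0 higher, against 14.2% of all genes lower. These counts were 5 and 1 in limma with TMM scaling and 3 and 2 with CPM recomputed on listed genes without Rn45s. They were 4 and 1 both in edgeR with TMM factors and in DESeq2. Leaving out Sema3G replicate 1, 2 or 3 gave 20, 5 or 6 lower and 0 higher. Matching shares of all genes were not computed for these settings. In bulk RNA, fewer cells of a type and less RNA per cell cannot be told apart. The labels do not say whether the samples came from separate cultures, so p-values measure the spread between these samples, which may be technical.

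The log2 fold change of CPM was below 0 for 37 of the 39 genes, against 67.5% of all genes, and above 0 for Gla and Mcoln1. Set against the median of all genes, 25 of the 39 were lower, against 50.0% of all genes by construction. The median of the 39 was -0.32, and it was -0.091 once the median of all genes was subtracted. The range ran from -0.91 for Gaa to 0.48 for Gla, with standard errors between 0.18 and 0.35. In 13 of the 39 every Sema3G library was below both PBS libraries, against 26.5% of all genes, and in 0 of the 39 every Sema3G library was above both, against 11.9%. After TMM scaling these counts were 10 lower, against 15.6% of all genes, and 3 higher (Gla, Laptm5 and Mcoln1), against 17.4%. The direction of a gene with a small difference thus depended on the scaling: 25 of the 39 were below 0 with TMM factors and 22 with CPM recomputed on listed genes leaving out Rn45s.

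**Figure D2:**
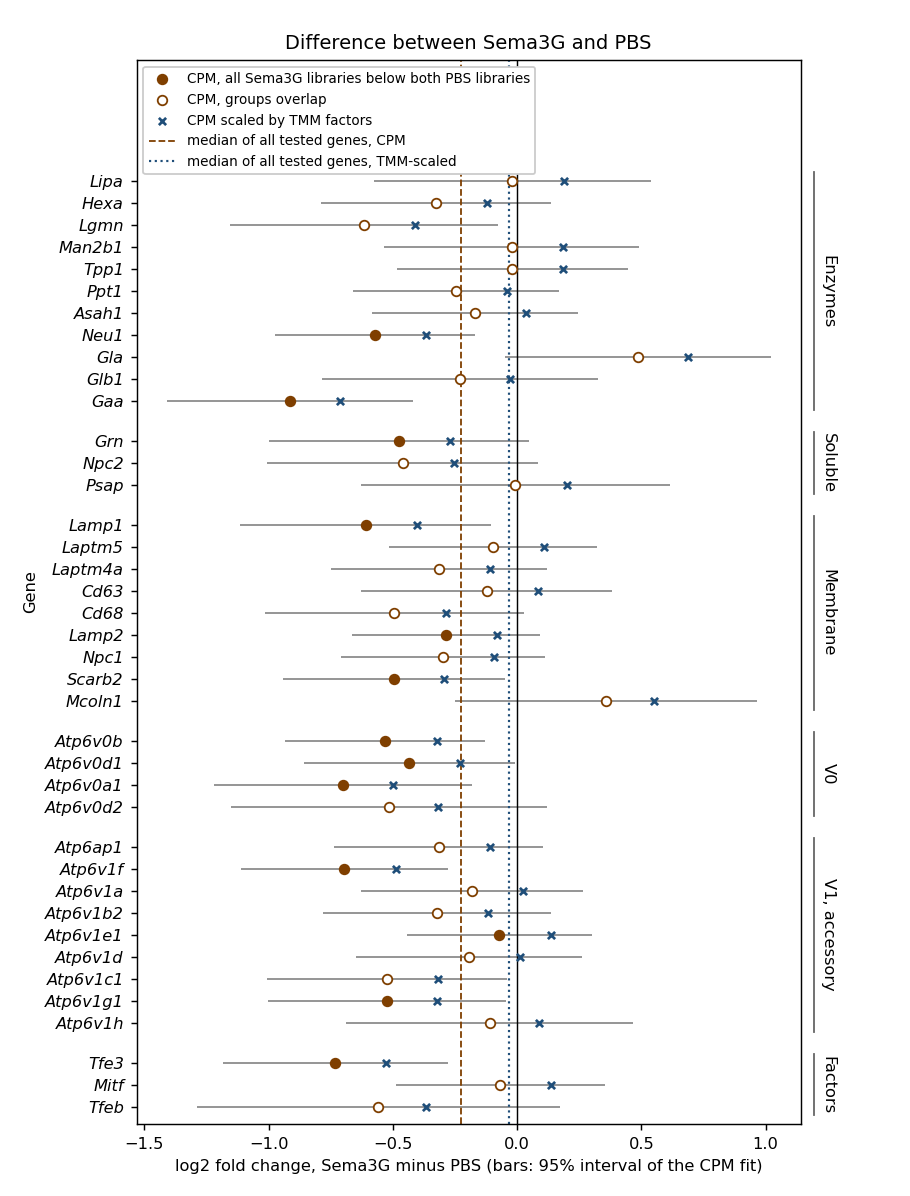
Difference between Sema3G and PBS as log2 fold change for the 39 tested genes by class, with circles for limma on log2(CPM + 1) and bars for its 95% interval. Crosses are the same after TMM scaling, and the lines mark the medians of all tested genes, at -0.22 and -0.034. Filled circles are the 13 genes whose Sema3G libraries all lie below both PBS libraries, from Gaa at -0.91 to Atp6v1e1 at -0.07, and Gla and Mcoln1 stand to the right of 0 under both scalings.

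Among the enzymes, Gaa and Gla stood at the low and the high end of the whole list. Gaa, the acid alpha-glucosidase that degrades glycogen, had 40.7 and 44.4 CPM with PBS and 25.0, 21.2 and 20.3 CPM with Sema3G. The groups did not overlap, and the libraries of each group lay close together. For Gaa the log2FC was -0.91 (SE 0.24, 95% interval -1.41 to -0.42, limma adjusted p = 0.0562). It came no closer to 0 than -0.64 over 15 alternatives. The 3 that called it were limma with the replicate number as a block, limma without Sema3G replicate 1 and edgeR by library size only. Those fits called 2.73%, 5.49% and 0.282% of all genes lower. Adjusted p was 0.105 in limma after TMM scaling, 0.0759 in edgeR with TMM factors and 0.321 in DESeq2. The log2FC of Gaa was -0.69 with the median of all genes subtracted. These values rest on 157 UMIs with PBS and 136 with Sema3G.

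Gla encodes alpha-galactosidase A, which removes terminal galactose from glycolipids, and had 37.9 and 21.4 CPM with PBS against 43.9, 35.2 and 42.4 CPM with Sema3G. PBS replicate 1 lay within the range of the Sema3G libraries and PBS replicate 2 below it. The log2FC was 0.48 (SE 0.26, limma adjusted p = 0.281), or 0.71 with the median of all genes subtracted. Scaled by TMM factors it was 0.69 (limma adjusted p = 0.143). Over the alternatives it ran from 0.087 without PBS replicate 2 to 0.88 without PBS replicate 1. Neu1, the sialidase, had 117 and 114 CPM with PBS and 84.5, 81.2 and 67.3 CPM with Sema3G, with no overlap. Its log2FC was -0.57 (SE 0.19, limma adjusted p = 0.122), or -0.35 with the median of all genes subtracted.

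The other 8 enzymes overlapped between the groups. They were Lipa (lysosomal acid lipase), Hexa (the alpha subunit of beta-hexosaminidase), Lgmn (legumain, an asparaginyl endopeptidase), Man2b1 (alpha-mannosidase), Tpp1 (tripeptidyl peptidase), Ppt1 (palmitoyl-protein thioesterase), Asah1 (acid ceramidase) and Glb1 (beta-galactosidase). Their mean levels ran from 31.1 CPM for Glb1 to 551 CPM for Lipa. Since each UMI stands for the 3′ end of an RNA, CPM was not divided by gene length here. The median log2 fold change of the 11 enzymes was -0.23, or -0.0049 with the median of all genes subtracted. Exons of Ppt1 overlap those of Cap1 on the opposite strand, and exons of Glb1 overlap those of Tmppe on the same strand, with 1445 UMIs on Cap1 and 165 on Tmppe. The sources used here do not say whether the counting used strand.

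**Figure D3:**
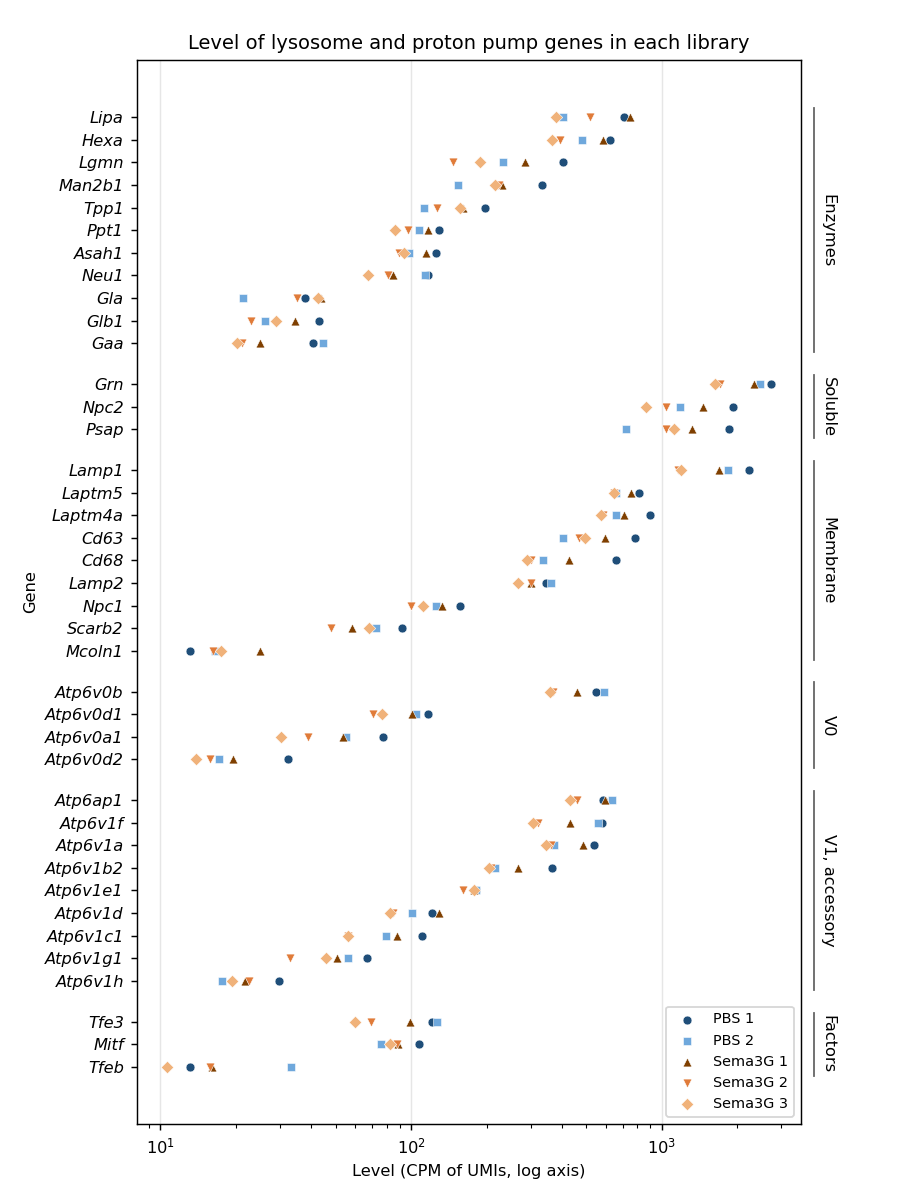
Level of each of the 39 tested genes in each library (CPM of UMIs, log axis), ordered by mean level within each class, with blue symbols for the 2 PBS libraries and brown symbols for the 3 Sema3G libraries. Grn, Lamp1, Npc2, Psap and Laptm5 have the highest means, and the PBS libraries of Psap stand apart on either side of its Sema3G libraries, at 1855 and 721 CPM.

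The soluble proteins without enzyme activity included 3 of the 5 most abundant genes of the list. Grn encodes progranulin, a secreted and lysosomal glycoprotein, and had 2717 and 2473 CPM with PBS and 2330, 1705 and 1628 CPM with Sema3G. All 3 Sema3G libraries were below both PBS libraries, with Sema3G replicate 1 closest to them. For Grn the log2FC was -0.48 (SE 0.25, limma adjusted p = 0.278), or -0.25 with the median of all genes subtracted. Npc2, which hands cholesterol to the membrane protein Npc1, had 1921 and 1179 CPM with PBS and 1454, 1036 and 867 CPM with Sema3G, which gave a log2FC of -0.46 (limma adjusted p = 0.313). Leaving out PBS replicate 1 gave -0.11, and leaving out PBS replicate 2 gave -0.81. Sema3G replicate 1 lay between the PBS libraries, so the groups overlapped. The median of the 3 soluble genes, Psap included, was -0.46, or -0.24 with the median of all genes subtracted, and the latter was 0.022 without PBS replicate 1 and -0.39 without PBS replicate 2.

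Psap encodes prosaposin, the precursor of the saposins that present sphingolipids to their hydrolases. It had 1855 and 721 CPM with PBS and 1314, 1038 and 1116 CPM with Sema3G. The PBS libraries thus lay on both sides of the Sema3G libraries, and their ratio was 2.57 (95% interval 2.42 to 2.74, for counting error only). For Psap the log2FC was -0.01 (SE 0.30, limma adjusted p = 0.992). Without PBS replicate 1 it was 0.67, and without PBS replicate 2 it was -0.69.

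Of the membrane proteins, Lamp1, Lamp2 and Scarb2 had no overlap between the groups in CPM. Lamp1, a glycoprotein that lines the inner face of the lysosomal membrane, had 2231 and 1839 CPM with PBS and 1694, 1156 and 1195 CPM with Sema3G. Sema3G replicate 1 was closer to PBS replicate 2 than to the other Sema3G libraries. The log2FC was -0.61 (SE 0.24, limma adjusted p = 0.168), or -0.38 with the median of all genes subtracted. Without Sema3G replicate 1 it was -0.78 (limma adjusted p = 0.0259), in a fit that called 5.49% of all genes lower. After TMM scaling it was -0.40 (limma adjusted p = 0.326). Lamp2, which also serves in autophagy, had 346 and 363 CPM with PBS and 302, 301 and 268 CPM with Sema3G, which gave a log2FC of -0.29 (SE 0.18, limma adjusted p = 0.362). After TMM scaling the groups of Lamp2 overlapped.

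Scarb2, the receptor that carries glucocerebrosidase to the lysosome, had 91.8 and 72.3 CPM with PBS and 58.4, 47.8 and 67.8 CPM with Sema3G. The libraries nearest to each other, PBS replicate 2 and Sema3G replicate 3, differed by less than the spread within either group. Its log2FC was -0.50 (SE 0.21, limma adjusted p = 0.196), or -0.27 with the median of all genes subtracted. It was -0.33 without PBS replicate 1 and -0.61 with the replicate number as a block (limma adjusted p = 0.0375), a fit that called 2.73% of all genes lower. After TMM scaling its groups overlapped. Laptm5, a transmembrane protein of blood cell lysosomes, had 808 and 657 CPM with PBS and 754, 645 and 647 CPM with Sema3G, which gave a log2FC of -0.10 (limma adjusted p = 0.798). These groups overlapped in CPM, and after TMM scaling its log2FC was 0.11.

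Mcoln1 encodes a calcium channel of the lysosomal membrane and was the other gene with a value above 0. It had 13.2 and 16.6 CPM with PBS and 25.0, 16.2 and 17.5 CPM with Sema3G, from 55 and 119 UMIs in all. Sema3G replicate 1 was the highest library, Sema3G replicate 3 was just above both PBS libraries, and Sema3G replicate 2 lay between them. The log2FC was 0.36 (SE 0.29, limma adjusted p = 0.476), or 0.58 with the median of all genes subtracted. Leaving out Sema3G replicate 1 gave 0.18, and leaving out PBS replicate 1 gave 0.20. The other membrane genes, Laptm4a, Cd63 (a tetraspanin), Cd68 (a glycoprotein used as a macrophage marker) and Npc1 (the cholesterol exporter), overlapped between the groups and had mean levels from 126 CPM for Npc1 to 682 CPM for Laptm4a. The median log2 fold change of the 9 membrane genes was -0.30, or -0.072 with the median of all genes subtracted.

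Of the 14 genes of the proton pump, 13 were tested, and all 13 had a log2 fold change below 0 in CPM, against 67.5% of all genes. Their median was -0.43, or -0.21 with the median of all genes subtracted, 9 of the 13 were below that median, against 50.0% of all genes, and 0 were called, against 0.218% of all genes called lower. After TMM scaling 4 of the 13 were above 0 (Atp6v1a, Atp6v1d, Atp6v1e1 and Atp6v1h). In 6 of the 13 every Sema3G library was below both PBS libraries in CPM, against 26.5% of all genes, and in 5 after TMM scaling, against 15.6%. The summed level of the V0 subunits was 772 and 767 CPM with PBS and 632, 493 and 480 CPM with Sema3G, with no overlap. Atp6v0b made up 73.8% of this sum, so the sum follows that gene. The 4 tested V0 genes had a median log2FC of -0.52, or -0.30 with the median of all genes subtracted. For V1 and the accessory protein the sum was 2575 and 2214 CPM with PBS and 2247, 1708 and 1670 CPM with Sema3G, where Sema3G replicate 1 lay between the PBS libraries. The accessory protein Atp6ap1, which is not a V1 subunit, had the largest part of this sum, 26.0%.

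Among the V0 subunits, Atp6v0b encodes a subunit of the proton-carrying ring and had 546 and 590 CPM with PBS and 458, 368 and 359 CPM with Sema3G. Every Sema3G library was below both PBS libraries, and Sema3G replicate 1 was the nearest to them. The log2FC was -0.53 (SE 0.19, limma adjusted p = 0.139), or -0.31 with the median of all genes subtracted. Atp6v0a1, an isoform of the large subunit that forms the proton path with the ring, had 77.5 and 55.1 CPM with PBS and 53.4, 38.8 and 30.4 CPM with Sema3G. PBS replicate 2 and Sema3G replicate 1 were almost level, at 103 and 96 UMIs, although the groups did not overlap. Its log2FC was -0.70 (SE 0.25, limma adjusted p = 0.135), or -0.48 with the median of all genes subtracted, and -0.46 without PBS replicate 1.

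Subunit d sits between the ring and the stalk and exists as the widely expressed d1 and as d2, which is known from osteoclasts. Atp6v0d1 had 116 and 105 CPM with PBS and 101, 70.4 and 76.5 CPM with Sema3G, which gave a log2FC of -0.43 (SE 0.20, limma adjusted p = 0.229). The groups of Atp6v0d1 did not overlap, and its value was -0.21 with the median of all genes subtracted. Atp6v0d2 had 32.4 and 17.1 CPM with PBS and 19.5, 15.8 and 13.8 CPM with Sema3G, which gave a log2FC of -0.52 (SE 0.30, limma adjusted p = 0.330), or -0.29 with the median of all genes subtracted. These groups overlapped, since Sema3G replicate 1 was above PBS replicate 2, and for Atp6v0d2 leaving out PBS replicate 1 gave -0.075 and leaving out PBS replicate 2 gave -0.96.

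The share of d2 in the UMIs of both d genes does not move with the scaling of a library. It was 21.8% (exact 95% binomial interval 17.01 to 27.2) and 14.0% (9.80 to 19.2) with PBS, and 16.2% (11.6 to 21.8), 18.3% (13.1 to 24.6) and 15.3% (10.6 to 21.1) with Sema3G. The 2 PBS libraries enclosed all 3 Sema3G libraries, and a difference in this share between the groups was not tested. Atp6v0c, the other ring subunit, was listed at 0, and a row named Atp6v0c-ps2 held 2 UMIs in PBS replicate 1 and 0 in the other libraries. The sources used here do not say how reads that match both were treated.

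Within V1, Atp6v1f and Atp6v1e1 marked the ends of the range. Atp6v1f, a subunit of the central rotor, had 577 and 555 CPM with PBS and 432, 321 and 307 CPM with Sema3G. The gap between the groups, from 432 to 555 CPM, was wider than the spread of the PBS libraries and about as wide as that of the Sema3G libraries. The log2FC was -0.70 (SE 0.20, 95% interval -1.11 to -0.28, limma adjusted p = 0.0814), with -0.40 as the value nearest to 0 over 15 alternatives, and -0.47 with the median of all genes subtracted. Atp6v1e1, part of the outer stalks, had 181 and 182 CPM with PBS and 178, 161 and 179 CPM with Sema3G. The groups of Atp6v1e1 did not overlap in CPM, but 4 of the 5 libraries were within 4 CPM of each other. Its log2FC was -0.07 (SE 0.18, limma adjusted p = 0.843), and it was 0.13 after TMM scaling.

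Atp6v1g1, the other outer stalk subunit without overlap, had 67.0 and 56.2 CPM with PBS and 50.6, 32.9 and 45.6 CPM with Sema3G. Sema3G replicate 2 was the lowest library, and the log2FC was -0.52 (SE 0.23, limma adjusted p = 0.202), or -0.30 with the median of all genes subtracted. It was -0.35 without Sema3G replicate 2 and -0.32 after TMM scaling. The groups overlapped for the other 6: the catalytic subunit Atp6v1a, its partner Atp6v1b2, Atp6v1c1, Atp6v1d, Atp6v1h and the accessory protein Atp6ap1. Their mean levels ran from 22.2 CPM for Atp6v1h to 541 CPM for Atp6ap1. Over the 9 genes of this class the median log2 fold change was -0.32, or -0.091 with the median of all genes subtracted.

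Of the factors that bind the E-box shown above, Tfe3 was the only one without overlap between the groups. Tfe3 had 121 and 127 CPM with PBS and 99.0, 69.0 and 59.9 CPM with Sema3G. The groups did not overlap, before or after TMM scaling, and Sema3G replicate 1 was the nearest to the PBS libraries. The log2FC was -0.73 (SE 0.22, 95% interval -1.19 to -0.28, limma adjusted p = 0.0884) and stayed between -0.94 and -0.45 over the 15 alternatives. The 2 that called it were limma with the replicate number as a block and limma without Sema3G replicate 1. Those fits called 2.73% and 5.49% of all genes lower. With the median of all genes subtracted, the log2FC of Tfe3 was -0.51. Mitf, which is also needed for osteoclasts, had 108 and 76.0 CPM with PBS and 89.0, 87.6 and 82.5 CPM with Sema3G, so the PBS libraries enclosed the Sema3G libraries. Its log2FC was -0.07 (SE 0.20, limma adjusted p = 0.871).

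Tfeb, the factor best known for this program, was the least abundant of the 3. It had 13.2 and 33.2 CPM with PBS and 16.1, 15.8 and 10.6 CPM with Sema3G, from 24, 62, 29, 35 and 23 UMIs. PBS replicate 2 alone was high, and PBS replicate 1 lay within the range of the Sema3G libraries. The log2FC was -0.56 (SE 0.35, limma adjusted p = 0.359), or -0.33 with the median of all genes subtracted, and it was 0.075 without PBS replicate 2 and -1.19 without PBS replicate 1. Summed, the 3 factors had 242 and 237 CPM with PBS and 204, 172 and 153 CPM with Sema3G, with no overlap. Tfe3 made up 47.3% of this sum, and Mitf and Tfeb differed between the PBS libraries in opposite directions. The median log2FC of the 3 was that of Tfeb, -0.56, or -0.33 with the median of all genes subtracted. These are RNA levels, and the position of the proteins in the cell, by which the factors are controlled, was not measured.

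Libraries of the same group differed in many of these genes. Of the 39, 25 had more UMIs per library total in PBS replicate 1 than in replicate 2 beyond counting error (the 95% interval of the ratio was above 1), against 15.7% of all genes, and 1, Tfeb, was higher in PBS replicate 2, with a ratio of replicate 1 over replicate 2 of 0.397. The median ratio was 1.28, against 1.09 over all tested genes. In the same way 25 of the 39 were higher in Sema3G replicate 1 than in Sema3G replicates 2 and 3 together and 0 were lower, against 17.6% of all genes, with a median ratio of 1.29 against 1.11. Whether a ratio passes counting error depends on the number of UMIs. The 39 genes had 173 to 21066 UMIs each, while all tested genes reach down to a mean of 1 CPM. The shares of all genes are therefore not matched for level. After Psap, the largest ratios of PBS replicate 1 over replicate 2 were 2.17 for Man2b1, 1.95 for Cd68 and 1.94 for Cd63. Over all 40 genes the summed level was 18818 and 13857 CPM with PBS and 15291, 11525 and 11220 CPM with Sema3G, so the total of Sema3G replicate 1 lay between those of the PBS libraries and the groups overlapped. The share of Rn45s ran the other way within each group, since PBS replicate 1 and Sema3G replicate 1 had the lower shares. Its part in these differences was not tested.

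**Figure D4:**
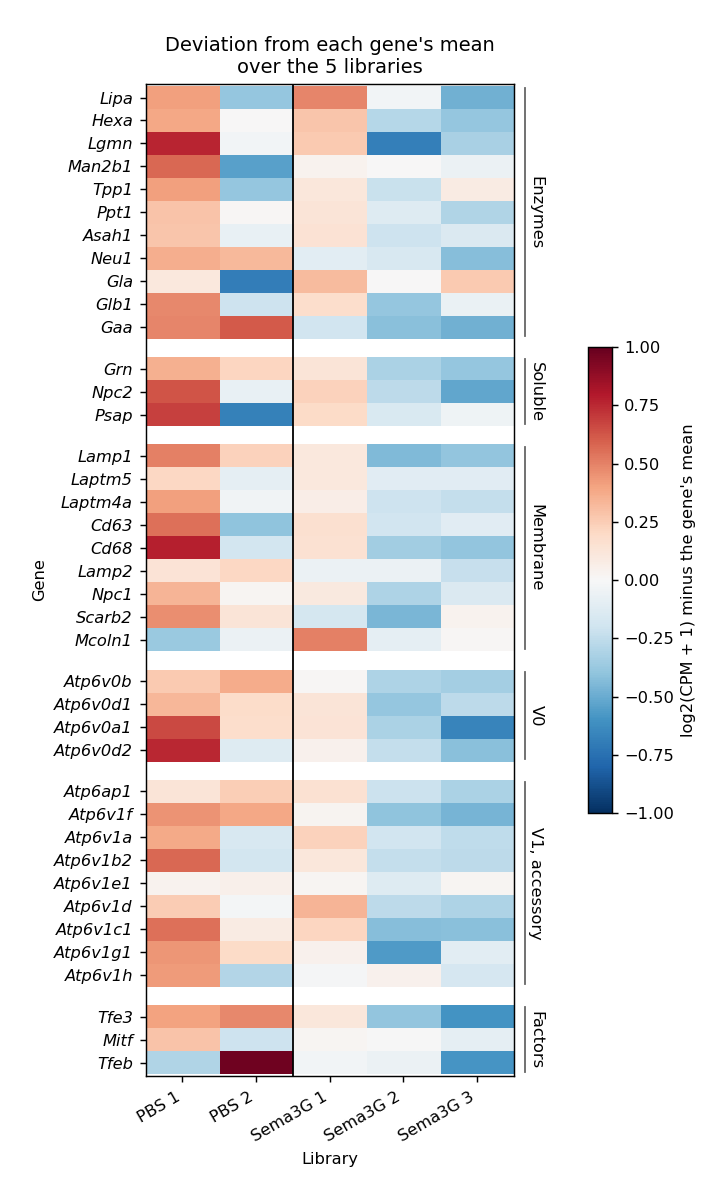
Deviation of log2(CPM + 1) in each library from the mean of the gene over the 5 libraries, for the 39 tested genes by class (red above, blue below the mean). Of the 39 genes, 37 are above their mean in PBS replicate 1, 19 in PBS replicate 2, 33 in Sema3G replicate 1, 3 in Sema3G replicate 2 and 5 in Sema3G replicate 3.

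The calls depended on these libraries. Without Sema3G replicate 1, limma called 9 of the 39 lower (Atp6v0a1, Atp6v0b, Atp6v1c1, Atp6v1f, Gaa, Lamp1, Lgmn, Neu1 and Tfe3) and 0 higher, and 5.49% of all genes were then called lower. Of the 9, 4 belong to the proton pump, at adjusted p values from 0.0113 for Atp6v1f to 0.0420 for Atp6v1c1. Without PBS replicate 2 the only call was Cd68, lower with a log2FC of -0.97 (limma adjusted p = 0.0390), against 0.327% of all genes called lower. The log2FC of Cd68 was -0.49 with all libraries (limma adjusted p = 0.261) and -0.015 without PBS replicate 1. Without PBS replicate 1, where 0 were called, against 0.0894% of all genes called lower, the median of the 39 was -0.11, or 0.022 with the median of all genes subtracted. Without PBS replicate 2 it was -0.54, or -0.24 with the median of all genes subtracted.

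**Figure D5:**
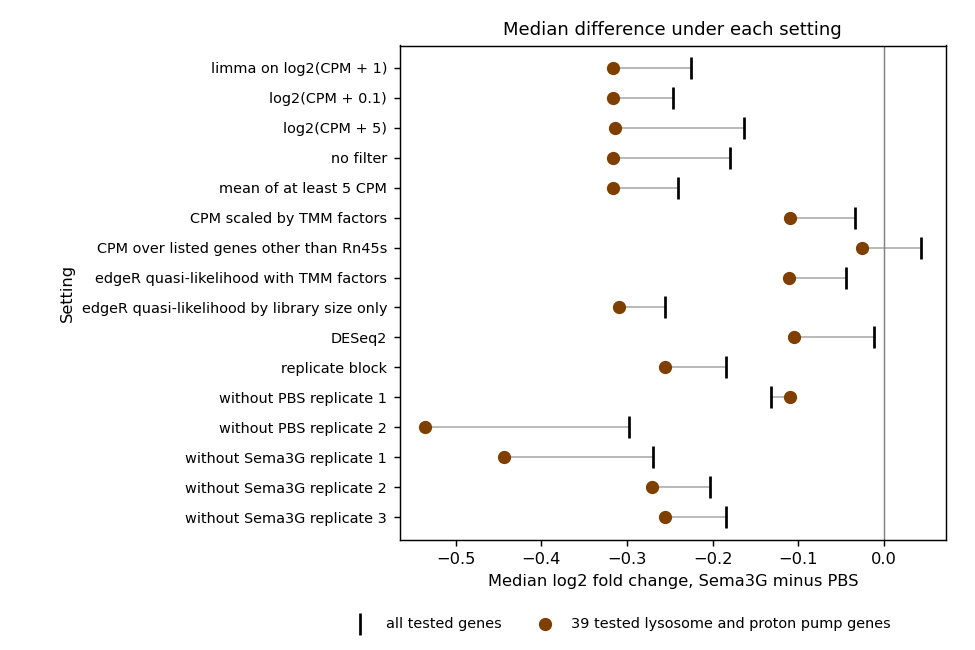
Median log2 fold change of the 39 tested genes (circles) and of all tested genes (bars) under each of 16 settings. The circles lie to the left of the bars except without PBS replicate 1. The difference between circle and bar is -0.091 with limma on log2(CPM + 1) and all libraries, and it runs from -0.24 without PBS replicate 2 to 0.022 without PBS replicate 1.

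Genes of the same pathways that are not on the list gave the wider setting. Of 73 further genes for enzymes, transporters, V-ATPase subunits, nutrient sensing and delivery to the lysosome, 66 were tested, 61 had a log2 fold change below 0, against 67.5% of all genes, and 5 above it, and the median was -0.38, or -0.16 with the median of all genes subtracted. In 24 every Sema3G library was below both PBS libraries, against 26.5% of all genes, and in 1 (Slc17a5) above, against 11.9%. After TMM scaling these counts were 19 and 2, against 15.6% and 17.4%. Of the 66, limma called 1 lower and 0 higher, against 0.218% of all genes called lower and 1.8% in either direction. Naglu, an enzyme of heparan sulfate degradation, fell from 76.4 and 69.1 CPM with PBS to 40.03, 41.1 and 37.8 CPM with Sema3G, which gave a log2FC of -0.86 (SE 0.20, limma adjusted p = 0.0398), or -0.63 with the median of all genes subtracted. Over the alternatives its adjusted p ran from 0.00545 to 0.223 and was below 0.05 in 5 of 15. It was 0.156 without PBS replicate 1, 0.0664 without PBS replicate 2, 0.207 without Sema3G replicate 2 and 0.202 without Sema3G replicate 3, all from limma, with log2 fold changes of -0.79, -0.93, -0.88 and -0.83. After TMM scaling the limma adjusted p was 0.0760, with a log2 fold change of -0.66.

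Slc17a5, which exports free sialic acid from the lysosome, had the highest value of these genes. It had 15.4 and 11.2 CPM with PBS and 23.9, 30.2 and 31.8 CPM with Sema3G, and the groups did not overlap. Its log2FC was 1.06 (SE 0.27, limma adjusted p = 0.0522), or 1.28 with the median of all genes subtracted, and 7 of 15 alternatives called it. The next highest were Rragd, with 3 and 1 UMIs under PBS and 8, 4 and 2 under Sema3G (log2FC 0.61, limma adjusted p = 0.544), and Rraga, with 64.8 and 32.7 CPM with PBS and 52.3, 72.2 and 65.9 CPM with Sema3G (log2FC 0.44, limma adjusted p = 0.327). Both encode Rag GTPases, which bring mTORC1 to the lysosome, and both overlapped between the groups. The value of Rragd ran from 0.20 without Sema3G replicate 1 to 1.01 without PBS replicate 1.

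At the low end beside Naglu stood Nagpa and Manba. Nagpa, which uncovers the mannose 6-phosphate tag on lysosomal enzymes, had 115 and 102 CPM with PBS and 79.0, 42.9 and 70.1 CPM with Sema3G, with no overlap (log2FC -0.80, or -0.57 with the median of all genes subtracted, limma adjusted p = 0.0884). Of 15 alternatives 2 called it, limma with the replicate number as a block (-0.88, adjusted p = 0.000433) and limma without Sema3G replicate 1 (-0.97, adjusted p = 0.0234). These fits called 2.73% and 5.49% of all genes lower. Manba, beta-mannosidase, had 15.9 and 8.57 CPM with PBS and 12.2, 4.51 and 5.07 CPM with Sema3G, and Sema3G replicate 1 lay between the PBS libraries (log2FC -0.74, or -0.51 with the median of all genes subtracted, limma adjusted p = 0.315). For Manba the value was -0.33 without PBS replicate 1, -1.15 without PBS replicate 2 and -1.14 without Sema3G replicate 1. Of the 11 further V-ATPase genes, 5 were tested, all 5 had a log2 fold change below 0, against 67.5% of all genes, with a median of -0.48, or -0.26 with the median of all genes subtracted, and 0 were called, against 0.218% of all genes called lower.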

How the data were processed

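Reads of QuantSeq 3′ libraries were mapped by the authors to mm10. Strand NGS gave them the UMI count of each gene, and EdgeR (edgeR 3.12 in the submitters' processing notes) served for normalization and testing. The aligner and the annotation were not given in the sources used here, nor was any filter. The deposited values are CPM. The authors' p-values, q-values and ranking lie beside them and were not used. The CPM were whole multiples of 1 step per library (100% of values within 0.01 of a whole count), which gave the UMI counts. A floor of 3 counts corresponds to 1.35 to 1.67 CPM, and intervals and floors cover counting error only. No pair of libraries agreed within sampling noise. The smallest chi-square per degree of freedom was 1.77, for Sema3G replicates 2 and 3 over 7918 genes with at least 20 UMIs in the pair. No library was therefore taken for a second deposit of another, which does not show that they came from separate cultures.

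The test was limma (version 3.58.1 under R 4.3.3) with its trend option, run on log2(CPM + 1) of 10088 genes whose mean reached 1 CPM, 2 PBS against 3 Sema3G samples, with Benjamini-Hochberg adjustment and calls at an adjusted p below 0.05. Fold changes on this scale understate changes of low genes. The script was tested on simulated data. The alternatives set another pseudocount (0.1 or 5), dropped the filter or raised it to 5 CPM, scaled by TMM factors or by the listed genes without Rn45s, used edgeR's quasi-likelihood test (4.0.16, with and without TMM factors) or DESeq2 (1.42.0) on the recovered counts, added a replicate block, or left out each library. Gene positions came from GENCODE M21 and promoters from RefSeq (GRCm38.p6). The genes, lists and classes were chosen with earlier results of these data known. Values in every library are given for genes past the adjusted p, genes without overlap, the 5 highest by mean CPM, the 3 largest rises and falls, the d isoforms, the 3 factors, genes left out by the filter, and, of the other pathway genes, those past the adjusted p and the 3 largest rises and falls. Cathepsins were not on the lists.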

Additional observations from a re-analysis of the deposited data

How the results depend on the processing

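The number of all genes called was 182 with all libraries in limma on log2(CPM + 1), 108 without the filter, 328 with TMM scaling, 482 with CPM recomputed on listed genes without Rn45s, 334 with edgeR and TMM factors, and 26 to 856 with 1 library left out. The number of lysosome and proton pump genes called was 0, with 1 in edgeR by library size only and 0 to 9 with 1 library left out. The replicate numbers are shared by 2 pairs only, and the labels do not say that they mark a batch. Deviations from the group means correlated at 0.17 (PBS 1 with Sema3G 1) and 0.11 (PBS 2 with Sema3G 2) over 10088 genes, and at 0.097 for PBS 2 with Sema3G 3, which share no number. The deviations of the 2 PBS libraries mirror each other by construction, so these correlations are not separate observations. With the replicate number as a block, in which Sema3G replicate 3 has no partner and does not enter the difference, 573 genes were called, 275 of them lower (2.73% of all genes tested), and 5 of the list, all lower (Atp6v1f, Gaa, Lgmn, Scarb2 and Tfe3), and Psap was at 0.014. With 1 library left out, the class medians relative to all genes ran from -0.22 to 0.14 for the enzymes, from -0.39 to 0.022 for the soluble proteins, from -0.24 to 0.039 for the membrane proteins, from -0.43 to -0.25 for V0, from -0.17 to 0.055 for V1 and from -0.64 to -0.018 for the factors. Of the 39 genes, 22 kept their sign in all 15 alternatives and 17 did not, and 28 were called in none.

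With TMM scaling, CPM recomputed on listed genes without Rn45s, edgeR with TMM factors and DESeq2, in this order, 12, 15, 12 and 12 of the 39 genes turned from below to above 0. Among them were Atp6v1e1 (0.13, 0.22, 0.14 and 0.14), Laptm5 (0.11, 0.19, 0.11 and 0.11), Mitf (0.14, 0.22, 0.13 and 0.14) and Psap (0.20, 0.28, 0.083 and 0.090), and Lamp2 with the second of these (0.0026). With 1 library left out, 13 of the 39 turned at least once. The log2 fold change then ran from -0.58 to 0.54 for Man2b1, -0.42 to 0.38 for Lipa and for Tpp1, -0.60 to 0.35 for Cd63, -0.57 to 0.11 for Glb1, -0.25 to 0.050 for Laptm5, -0.32 to 0.18 for Mitf, -0.69 to 0.67 for Psap, -1.19 to 0.075 for Tfeb and -0.043 to 0.93 for Rraga. The cause was not tested. With 3 UMIs worth 1.35 to 1.67 CPM, the tested genes of the list with the fewest UMIs over all libraries were Tfeb, Mcoln1 and Atp6v0d2, at 173 to 191, and of the other genes named Manba had 88 and Rragd 18.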

Other observations

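Ratios of 2 genes within a library do not move with its scaling. The pairs given here were chosen after their values were seen, and their differences were not tested. Gaa made up 51.7% and 67.5% of the UMIs of Gaa and Gla together with PBS, and 36.3%, 37.6% and 32.4% with Sema3G. The ratio of the rotor subunit Atp6v1f to the catalytic subunit Atp6v1a was 1.07 and 1.497 with PBS and 0.89, 0.89 and 0.88 with Sema3G. Atp6v0b made up 75.1% and 76.4% of the UMIs of Atp6v0b and Atp6v1e1 with PBS, and 72.0%, 69.5% and 66.8% with Sema3G. In these 3 pairs the groups did not overlap. The ratio of Psap to Grn was 0.68 and 0.29 with PBS and 0.56, 0.61 and 0.69 with Sema3G, with PBS replicate 2 alone low, and that of Atp6v1b2 to Atp6v1a was 0.68 and 0.58 with PBS and 0.55, 0.58 and 0.59 with Sema3G.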
